A study of Rattus norvegicus with 12 samples.

Results

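The cytoplasmic ribosomal protein genes encode the proteins of the cell's ribosome, and they were represented on the array by 123 probes carrying 79 gene names, out of 41012 non-control probes. A probe was taken when its gene name was Rpl or Rps followed by a digit, or Rplp1, Rplp2 or Rpsa. The Rps6k kinases (11 probes) and 3 probes whose names end in l (Rpl36al and Rpl3l) were left out. Rplp0 had 0 probes under that symbol, since the array carries its older name Arbp. The large subunit supplied 77 probes of 47 names and the small subunit 46 probes of 32 names. Rpl22l1, Rpl26l1 and Rpl7l1 are paralogs and Rps19bp1 is a partner of a ribosomal protein. All of them met the rule on names, and 117 probes remained without them.

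RNA of the left ventricle and of whole blood came from male Sprague-Dawley (CD) rats, 11 weeks old (10 weeks at the start). Each of 12 pools was put on 1 single-colour Agilent array. The heart amiodarone and blood amiodarone groups (3 pools each) came from rats dosed orally for 10 days with 300 mg/kg/day of amiodarone, an antiarrhythmic drug. The heart vehicle and blood vehicle groups (3 pools each) came from rats given methylcellulose 1%. The labels do not say how many rats made up a pool or whether heart and blood pools share animals, so p-values measure only the spread between these pools.

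Each ribosome is built from a large subunit, which joins amino acids, and a small subunit, which reads the messenger. Nearly every ribosomal protein is present once per particle, so their messengers are made in balance and are among the most abundant in any cell. In mammals most of these messengers begin with a C followed by a run of C and T, the terminal oligopyrimidine (TOP) motif, through which mTOR and LARP1 set their translation and stability. Reticulocytes, the young red cells of the blood, still carry ribosomes and lose them as they mature.

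The start of the gene shows this shared feature. RefSeq promoters of rat build GRCr8 were matched by symbol for 64 of the 79 names. A run of at least 8 C or T, on the gene's own strand and within 10 bases of the annotated start, was found in 43 of the 64 (67.2%), against 13.2% of all 33469 promoters. A C followed by 4 C or T exactly at the start was found in 23 of the 64 (35.9%), against 2.63% of all promoters. The windows below hold 15 bases on each side of the annotated start, with the C or T run in capitals where it reached that length. They are shown for 2 genes that rose in heart (Rps27 and Rpl10), 3 that fell in blood (Rps14, Rplp1 and Rpl41) and 1 that rose in blood (Rpl3), each on the 75th percentile scale used for the tests.

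Rps27, chr2:177964592-177964621, minus strand: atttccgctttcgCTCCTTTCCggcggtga
Rpl10, chrX:157205835-157205864, plus strand: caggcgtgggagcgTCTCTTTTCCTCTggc
Rps14, chr18:56498245-56498274, plus strand: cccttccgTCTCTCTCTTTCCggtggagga
Rplp1, chr8:71290858-71290887, minus strand: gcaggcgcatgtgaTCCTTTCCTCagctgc
Rpl41, chr7:1563483-1563512, minus strand: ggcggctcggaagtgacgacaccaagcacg
Rpl3, chr7:113507976-113508005, minus strand: ccagcgcctgctcgatctctatcggcggcg

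The run was present in Rps27, Rpl10, Rps14 and Rplp1, and was not in the windows of Rpl41 and Rpl3. Names with and without the run had median log2 drug differences of 0.33 and 0.32 in heart and of -0.32 and -0.17 in blood, given as a description. The probes are spread over the genome. By the first probe of each name on rn4, the build of the array files, chromosome 1 held 16 of the names. Chromosome 7 held 8, and chromosomes 2 and 5 held 7 each. These are places of probes, and some differ from the gene's annotated start. The Rpl9 probe was on chromosome 1 and its start on chromosome 14, and for Rpl38 these were chromosomes 2 and 10.

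The probes were bright. Of the 123 probes, 115 were well above background on all 12 arrays, 2 (Rpl26l1 and 1 of the Rpl28 probes) on none, and 0 were saturated on any array. The tests therefore covered 119 of them in heart, 120 in blood and 121 in the fit of all 12 arrays. The blood arrays differed in brightness between the arms. The 75th percentile of signal was 20.2 to 25.3 on the blood vehicle arrays and 54.1 to 83.5 on the blood amiodarone arrays, and the number of spots well above background was 14459 to 15548 against 20625 to 21245. In heart the percentile was 106 to 165 with vehicle and 103 to 151 with amiodarone. Results in blood are therefore given on more than 1 scale.

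Cell type markers moved with the drug in both tissues. The summed signal of 16 red cell and reticulocyte genes was 2.89% to 3.36% of all signal in blood vehicle and 1.04% to 1.69% in blood amiodarone. Of the 16, 15 fell in blood (limma, adjusted p under 0.05), where 25.1% of all probes did. The red cell share of heart signal was 0.0395% to 0.0476% with vehicle and 0.0073% to 0.00939% with amiodarone. Ank1, Ermap, Gata1 and Rhag were not well above background in any heart vehicle pool. In heart, 8 of 11 tested red cell genes and 11 of 12 tested genes of dividing cells fell, where 3.69% of all probes did. Fibroblast genes went from 0.0865% to 0.138% of heart signal with vehicle to 0.0469% to 0.0652% with amiodarone, and 4 of 8 fell. In heart, 2 of 9 monocyte and macrophage genes and 2 of 4 neutrophil genes rose, where 3.81% of all probes did. Neutrophil genes held 0.0155% to 0.0196% of signal in blood vehicle and 0.0806% to 0.146% in blood amiodarone, with Fpr1 and Ltf not well above background in either. Of other blood cell markers tested in blood, 9 of 13 T cell, 5 of 7 platelet and 5 of 7 natural killer cell genes rose and 0 fell. Of all probes in blood, 41.4% rose and 25.1% fell. Of 11 neutrophil genes 7 rose and 1 fell, of 9 monocyte and macrophage genes 5 rose and 2 fell, and of 7 B cell genes 1 rose. These counts belong to the percentile scale used for the tests. Unscaled, the median difference in blood was -0.65 for the red cell genes, against -2.24 on that scale. For the other blood cell lists the unscaled medians ran from 1.85 (B cells) to 3.65 (neutrophils). Cardiomyocyte genes held 3.21% to 3.71% of heart vehicle signal and 3.30% to 3.54% with amiodarone, and 11 of the 14 were not well above background in any blood vehicle pool. The part these cells had in the ribosomal protein results was not tested, and in pools of tissue fewer cells of a type and less RNA per cell cannot be told apart.

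In the left ventricle the ribosomal protein probes were slightly higher with amiodarone, nearly all of them together. The median member probe stood at a log2 level, relative to its array's 75th percentile, of 6.85, 6.67 and 6.88 in the heart vehicle pools and 7.14, 7.14 and 7.12 in the heart amiodarone pools. Every treated pool lay above every vehicle pool. The median log2 difference over the 119 tested probes was 0.33 (middle 50% 0.23 to 0.40, range -0.25 to 0.77), against 0.02 over all 20503 probes tested, and 113 of the 119 were above 0. Few probes passed alone: 2 rose and 0 fell (limma, adjusted p under 0.05; 55 had an unadjusted p under 0.05), where 3.81% of all probes rose and 3.69% fell. By groups that do not overlap, 89 of the 119 were higher and 1 lower with amiodarone, where 18.2% and 13.2% of all probes were. The probes share arrays and are not independent of each other.

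The shift in heart kept its sign under each of 8 scalings. Without any scaling the median was 0.19 against -0.12 for all probes, with 0 of 119 past the threshold in limma and 0 at an unadjusted p under 0.05, where 1.16% of all probes rose and 2.8% fell. Against the spike-in controls, RNAs of known amount added to every sample, it was 0.42. The distance between the median of these probes and that of all probes was between 0.17 and 0.31 over the 8 scalings. The pools were hybridised on 2 slides, and the median difference was 0.34 on the slide with replicates 1 and 2 of both arms and 0.30 on the slide with replicate 3. Their share of the summed signal of an array, which needs no scaling between arrays, was 7.32%, 7.37% and 7.22% in heart vehicle (mean 7.30%, SD 0.0764, n = 3). It was 8.61%, 8.30% and 8.34% in heart amiodarone (mean 8.42%, SD 0.169, n = 3), above every vehicle pool.

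**Figure D1:**
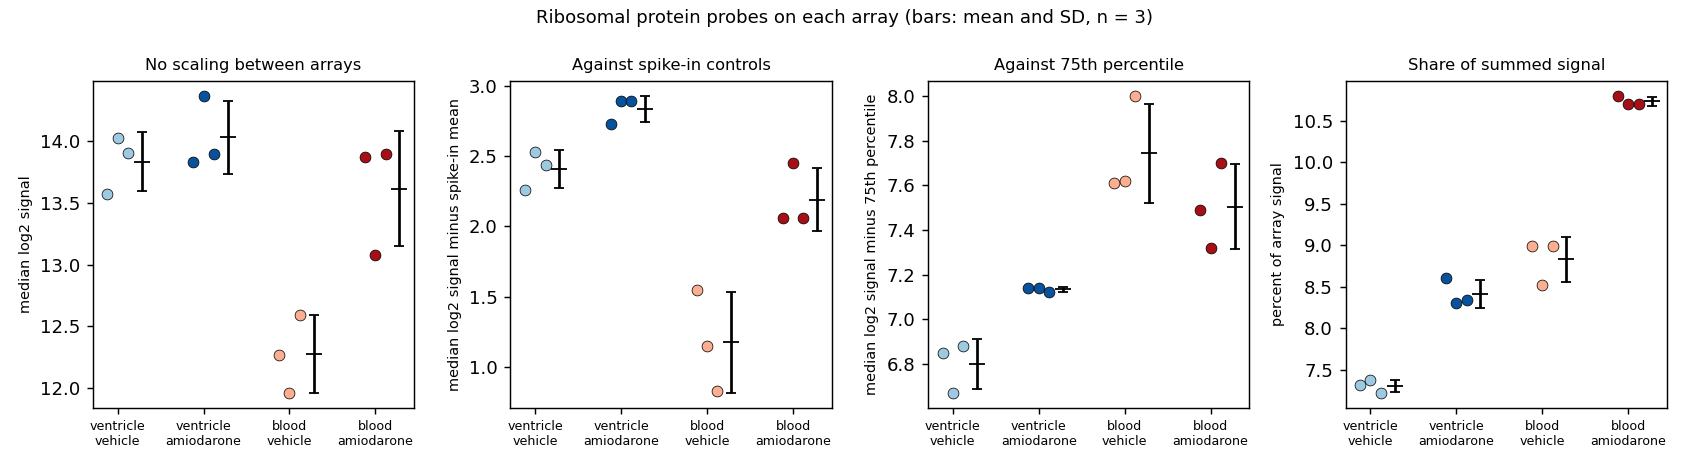
Ribosomal protein probes on each of the 12 arrays. Each point is 1 pool and the bars give the mean and SD of 3 pools; the first 3 panels plot the median log2 signal of the probes, unscaled, against the spike-in controls and against the 75th percentile, and the last plots their percent of the array's summed signal. In heart the treated pools lie higher in each panel but the unscaled one, where the arms overlap; in blood the treated pools lie higher unscaled and against the spike-ins, overlap on the 75th percentile scale and hold 10.7% to 10.8% of the signal against 8.52% to 8.99%.

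The 2 probes that rose in heart were of Rpl10 and Rps27. Rpl10, a large subunit protein that joins the particle last in the cytoplasm, had log2 scaled levels of 7.91, 7.66 and 7.28 in heart vehicle and 8.35, 8.33 and 8.47 in heart amiodarone. The treated pools lay above all vehicle pools, and the vehicle pools were the more widely spread. The log2 difference was 0.77 (SE 0.19, 1.70-fold, limma adjusted p = 0.0498), with 0.56 on the first slide and 1.19 on the second. The other Rpl10 probe gave 0.44 (adjusted p = 0.105).

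Rps27, a zinc finger protein of the small subunit, stood at 7.21, 6.97 and 7.11 in heart vehicle and 7.80, 7.65 and 7.61 in heart amiodarone. These groups did not overlap either. The log2 difference was 0.59 (SE 0.14, 1.5-fold, adjusted p = 0.0487), with 0.63 and 0.50 on the slides. Both calls sat just under the threshold and were lost in 16 of 20 other settings each, including every fit that left out 1 pool, with adjusted p up to 0.551 for Rpl10 and 0.789 for Rps27.

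Other members in heart gave nearly the same small value whatever their role. The large subunit (74 probes) had a median of 0.31 and the small subunit (45 probes) of 0.36. The acidic stalk proteins Rplp1 and Rplp2, which recruit elongation factors, were both at 0.33. Rpl5 and Rpl11, which carry the 5S RNA into the large subunit and can bind Mdm2, were at 0.35 to 0.45 over 3 probes and at 0.32. Rps6, the substrate of the S6 kinases, was at 0.40. Rps27a, made as a fusion with ubiquitin, was at 0.34, and Rpl13a, Rpl32 and Rps18, common reference genes of PCR, were at 0.33, 0.41 and 0.43. Rps19, the gene most often mutated in Diamond-Blackfan anaemia, was at 0.39, Rps4x at 0.40, Rpl10a at 0.33, Rpl22 at 0.34, and Rpl38 and Rpl39 at 0.22 each. None of these passed the threshold.

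A few members stood near or below 0 in heart. Rpsa, the laminin receptor protein of the small subunit, had levels of 3.89, 3.83 and 3.84 with vehicle and 3.85, 3.87 and 3.99 with amiodarone, and the groups overlapped. Its probes differed by 0.05 and 0.01 (SE 0.13 each). Rps2, which sits at the messenger's entry, was at 8.07, 7.99 and 8.19 against 8.02, 7.99 and 8.20 on 1 of its 4 probes, a difference of -0.01, and its lowest probe was at -0.18. Rpl3, which lies near the peptidyl transferase centre, was at 0.10, Rpl18 at -0.15 on 1 probe, Rpl7l1 at -0.19 and 0.00, and Rps19bp1 at -0.25. For Rpl3 the slides differed in sign, with -0.14 on the first and 0.60 on the second. So they did for that Rpl18 probe, with -0.33 and 0.20. Taken relative to the median member, Rps19bp1 fell by 0.58 (SE 0.15, adjusted p = 0.0375), the only member past the threshold on that scale, where 14.2% of all probes fell and 1.64% rose. That call held in 1 of the 6 fits that left out a pool, the one without replicate 1 of heart amiodarone. Rps26 differed widely between slides in heart. Its levels were 1.22, 0.89 and -1.09 with vehicle and 1.22, 1.39 and -0.75 with amiodarone. Replicate 3 of both arms, on the second slide, lay far below the rest. Within slides its difference was 0.25 on the first and 0.35 on the second, where the median member was at 0.34 and 0.30. Probes of other names described as the same protein (4) had a median of 0.29.

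Other parts of the translation machinery were measured in heart from lists of genes, each gene by its brightest probe. The counts stand beside the 3.81% of all probes that rose in heart and the 3.69% that fell. Of 20 elongation factors and other TOP messages, 20 were above 0 (median 0.24), and 2 rose: Nap1l1, a histone chaperone, by 0.93 (adjusted p = 0.0111), and Eif4b, an initiation factor and S6 kinase substrate, by 1.00 (adjusted p = 0.0259). Of 44 ribosome biogenesis factors, 1 rose and 0 fell (median 0.10), namely Npm1, a nucleolar chaperone (0.98, adjusted p = 0.0172). Of 18 mTOR and LARP1 regulators, 2 rose, Sesn1, an inhibitor of mTORC1 signalling, by 1.37 (adjusted p = 0.00622) and Eif4ebp1, the repressor of Eif4e, by 1.19 (adjusted p = 0.00908), and 1 fell. Of 27 other initiation factors, a list that does not hold Eif4b, 0 passed the threshold (limma; 5 had an unadjusted p under 0.05; median 0.16). Of 70 mitochondrial ribosomal proteins, which build a separate ribosome inside mitochondria, 0 passed in limma (6 had an unadjusted p under 0.05) and the median was 0.01.

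In whole blood the direction of the set as a whole depended on the scale, while a few members lay below the rest of the set, a difference that no single scaling factor for an array can alter. The median member stood at 7.61, 7.62 and 8.0 in blood vehicle and 7.49, 7.32 and 7.70 in blood amiodarone relative to the 75th percentile, and the arms overlapped. Unscaled, it was 12.27, 11.96 and 12.59 against 13.87, 13.08 and 13.90, and every treated pool was higher.

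Relative to the 75th percentile, the median log2 difference over 120 probes was -0.27 (middle 50% -0.47 to 0.05, range -2.23 to 0.68), against 0.49 over all 18120 probes. On that scale 24 members fell and 1 rose, where 25.1% of all probes fell and 41.4% rose. Of the 24 falls, 12 held in every fit that left out 1 pool, and 13 probes fell without replicate 1 or without replicate 2 of blood amiodarone. The rises numbered 4 without replicate 3 of blood vehicle, and 0 without replicate 2 of blood vehicle or without replicate 2 or 3 of blood amiodarone. Unscaled, the median was 1.32 against 2.07 for all probes, and 107 rose and 0 fell (limma; 108 had an unadjusted p under 0.05), where 76.6% and 1.75% of all probes did. Against the spike-ins it was 0.98 with 59 risen and 0 fallen (limma; 70 had an unadjusted p under 0.05, counting both directions), where 67.6% and 1.76% of all probes did. The share of summed signal was 8.99%, 8.52% and 8.99% in blood vehicle (mean 8.83%, SD 0.271, n = 3) and 10.8%, 10.7% and 10.7% in blood amiodarone (mean 10.7%, SD 0.0577, n = 3). All treated pools held a larger share than any vehicle pool.

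Under each of 8 scalings the median of these probes lay below that of all probes in blood. The distance, members minus all, was -0.75 on the 75th percentile scale, and a scaling by a single factor for each array cannot change it. It was -0.27 with quantile normalization, -0.35 with normexp background correction and -0.20 in the authors' values. That order held among probes above background: with no filter on dim probes, the medians on the 75th percentile scale were -0.27 for these probes and -1.01 for all. The filter let a probe enter through 1 arm alone, and more spots were detected in the treated arm. Among probes well above background on all blood arrays, the medians were -0.28 for members and 0.23 for all probes. There 32 of 116 members fell and 3 rose, where 34.9% of all probes fell and 41.3% rose. By groups that do not overlap on the 75th percentile scale, 46 of 120 were lower and 7 higher, where 26.9% and 46.1% of all probes were. Within slides the median was -0.22 on the first and -0.36 on the second. The middle 50% of these probes spanned 0.52 log2 units, against 1.63 for all probes tested.

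**Figure D2:**
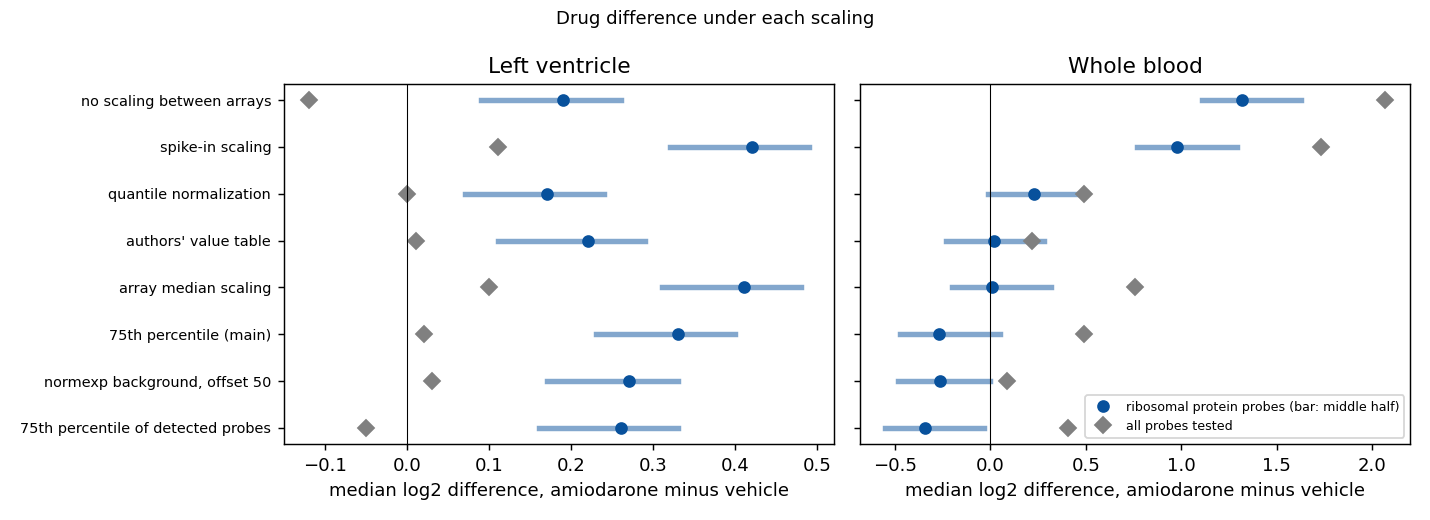
Median log2 difference, amiodarone minus vehicle, of the ribosomal protein probes (circles, bar from the lower to the upper quartile) and of all probes tested (diamonds) under 8 scalings, in heart (left) and blood (right). In heart the circles lie above 0 and above the diamonds under each scaling. In blood they run from -0.34 to 1.32 and lie below the diamonds under each. A scaling by a single factor for each array moves circles and diamonds by the same amount.

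Differences among members do not depend on how an array is scaled by a single factor, so the set was also centred on its own median on each array. Of 120 members in blood, 12 probes of 8 names were then lower and 7 probes of 7 names higher, where 20.6% of all probes were lower and 48.6% higher. Among the lower ones was a dim Rps28 probe described below. Those lower in all 6 fits that left out 1 pool included Rpl41, Rps14, Rplp1 and 2 of the 4 Rps2 probes. Rpl22 (0.84), Rpl3 (0.78), Rps26 (0.71), Rps19bp1 (0.68), Rpl15 (0.62), Rpl23a (0.61) and Rpl6 (0.60) were higher relative to the median member. Rpl3 kept its call in 4 of those 6 fits and the others in at most 3. The fits that ended Rpl3's call left out replicate 3 of blood vehicle or replicate 2 of blood amiodarone.

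Rpl41, the smallest ribosomal protein, had scaled log2 levels of 10.22, 10.47 and 11.03 in blood vehicle and 8.23, 8.34 and 8.46 in blood amiodarone. The arms were far apart, and the treated pools lay below the level of all heart pools (8.54 to 8.89). The log2 difference was -2.23 (SE 0.24, 4.71-fold lower, limma adjusted p = 0.00104) on the 75th percentile scale and -1.99 relative to the median member. It was -0.65 with no scaling (adjusted p = 0.103). In heart Rpl41 differed by 0.22.

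Rps14, a protein of the small subunit's platform whose loss underlies the anaemia of the 5q- syndrome in people, stood at 7.86, 7.96 and 8.01 in blood vehicle and 5.62, 6.06 and 6.06 in blood amiodarone. The arms were again well apart. The log2 difference was -2.03 (SE 0.19, 4.09-fold lower, adjusted p = 0.00102), -1.79 relative to the median member and -0.45 unscaled (adjusted p = 0.236). In heart it was 0.41 (adjusted p = 0.164), from 7.78, 7.49 and 7.50 to 8.13, 8.0 and 7.85, with treated pools above vehicle pools.

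Rps2 fell on each of its 4 probes in blood, by 1.31, 1.13, 1.1 and 0.87 (adjusted p from 0.00344 to 0.00997). On the probe at chr10:13976457-13976516, the levels were 9.50, 9.72 and 9.88 with vehicle and 8.34, 8.80 and 8.65 with amiodarone. Rplp1 was at 11.38, 11.64 and 12.06 against 10.54, 10.62 and 10.85, a difference of -1.02 (SE 0.22, 2.03-fold lower, adjusted p = 0.00668). For both genes no treated pool reached the level of a vehicle pool. Both falls belong to the 75th percentile scale. Unscaled, the Rps2 probes were above 0, at 0.28, 0.45, 0.48 and 0.72, and Rplp1 was at 0.56 (limma, adjusted p from 0.0668 to 0.494 over the 5 probes). All 5 lay below the unscaled median of the members.

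The remaining probes that fell in blood on the 75th percentile scale lay between -1.1 and -0.54. They included 1 Rpl37a probe (-1.0, adjusted p = 0.00489), Rpl13a (-0.74, adjusted p = 0.0249), Rps20 (-0.71, adjusted p = 0.0159) and Rps18 (-0.59, adjusted p = 0.0223). Without replicate 1 of blood amiodarone the latter 3 no longer passed, nor did Rpl13a without replicate 2, or Rps18 without replicate 2 or 3, of that group. Unscaled, the sign turned for each of these 4 probes: Rpl13a was at 0.85 (adjusted p = 0.0356), Rps20 at 0.88 (adjusted p = 0.0263) and Rps18 at 1.00 (adjusted p = 0.0118), and Rpl37a was at 0.59 (adjusted p = 0.123). The file places that Rpl37a probe on the strand opposite to the gene's annotated start, and whether it speaks for the gene's messenger was not tested. A second Rpl37a probe was at -0.60 on the 75th percentile scale. The other Rpl37a probe tested in blood was not well above background on any vehicle array there, so its difference is only bounded. The Rps28 probe at -1.1 (SE 0.18, adjusted p = 0.0024) was dim, at -0.97, -0.58 and -0.94 against -1.98, -1.91 and -1.91, and the file places it over a long span, chr16:71041983-71181070 of rn4. The other Rps28 probes were at 0.18 and 0.13, so that probe does not speak for the gene.

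Rpl3 was the only member that rose in blood on that scale, from 5.04, 5.00 and 4.92 to 5.34, 5.67 and 5.58, with no overlap. The difference was 0.54 (SE 0.17, 1.46-fold, adjusted p = 0.0277), and it was lost in 8 of 20 other settings, among them the fits without replicate 1 or 2 of blood vehicle and without replicate 2 or 3 of blood amiodarone. The other members of the list that is always given stood at -0.30 (Rplp2), -0.41 (Rps6), -0.50 (Rpl11), -0.06 to -0.08 (3 Rpl5 probes), -0.58 (Rps27a), -0.47 (Rpl10a), -0.22 (Rpl32), -0.60 (Rpl38), -0.15 (Rpl39), -0.19 (Rps4x), -0.36 and -0.27 (Rpsa), -0.27 and -0.46 (Rpl10), 0.09 (Rps19), 0.10 (Rps27), 0.47 (Rps26) and 0.60 (Rpl22). None of them passed the threshold.

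**Figure D3:**
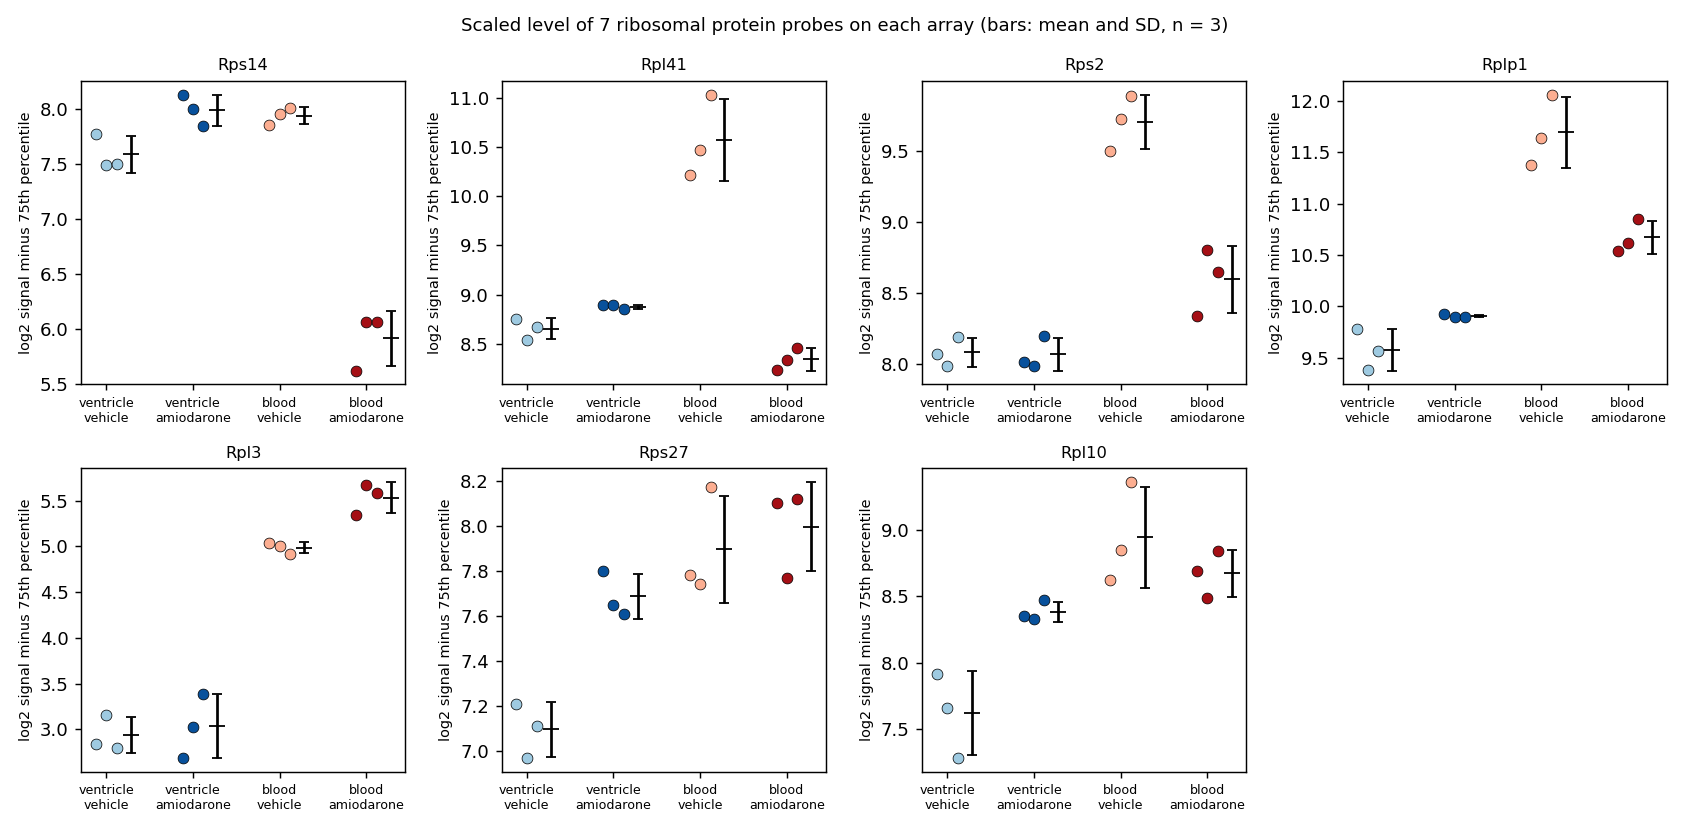
Scaled log2 level of 7 ribosomal protein probes on the 12 arrays (log2 signal minus the array's 75th percentile), with each pool as a point and the mean and SD of 3 pools as bars. Rps14, Rpl41, Rps2 and Rplp1 are lower in every treated blood pool than in any vehicle blood pool, Rpl3 is higher, and Rps27 and Rpl10 are higher in every treated heart pool.

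By place in the ribosome, the falls on the 75th percentile scale are counted beside the 25.1% of all probes that fell. Of 46 small subunit probes in blood 16 fell and 0 rose (limma; median -0.35), and of 74 large subunit probes 8 fell and 1 rose (median -0.17). Differences between the subunits or between places were not tested, and unscaled 0 members fell. Probes, not genes, are counted. Among 19 probes of the small subunit's head and decoding site 10 fell (median -0.57), 4 of them of Rps2 and 2 of Rps12. On its messenger exit side 2 of 9 probes fell (median -0.10), Rps14 and the dim Rps28 probe that does not speak for its gene. Around the peptide exit tunnel 1 of 15 probes fell (median -0.15). Of 32 probes of Diamond-Blackfan anaemia genes 7 fell (median -0.13), the dim Rps28 probe among them.

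Around them in blood, other translation genes were counted on the same scale, where 41.4% of all probes rose and 25.1% fell. Of 45 ribosome biogenesis factors 32 rose and 0 fell (median 0.66), among them Polr1a, the large subunit of RNA polymerase I (1.09, adjusted p = 0.00164), and Lsg1, a release factor for late large subunits (1.21, adjusted p = 0.00182). Of 68 mitochondrial ribosomal proteins 25 rose and 7 fell (median 0.40). Of 27 initiation factors 13 rose and 2 fell, and of 16 mTOR and LARP1 regulators 8 rose and 2 fell (medians 0.59 each). Eif2b1 was at 1.83, Eif1ax at -2.28, Rps6ka3 at 2.16 and Eef2k at -1.11. Unscaled, the medians were 2.25 for biogenesis factors, 1.99 for mitochondrial ribosomal proteins, and 2.18 each for initiation factors and for mTOR and LARP1 regulators. The falls in these lists, Eef2k among them, are therefore stated for the scaled values only.

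Among 20 elongation factors and other TOP messages 5 rose and 3 fell (median 0.18). Tpt1, one of the most abundant TOP messages, fell by 1.55 (adjusted p = 0.0014), and Eif4b rose by 0.92 (adjusted p = 0.00307). Both values are on the same scale as the counts. Unscaled, the median of this list was 1.76, so the fall of Tpt1 is stated for the scaled values only.

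Across members, the drug differences in heart and in blood were not correlated. Over the 118 probes tested in both, Pearson's r was 0.05 and Spearman's rho 0.05, given as a description of probes that share arrays. Of them 82 were higher in heart and lower in blood, and 31 were higher in both. Those counts belong to the 75th percentile scale: unscaled, 2 were higher in heart and lower in blood and 101 were higher in both.

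**Figure D4:**
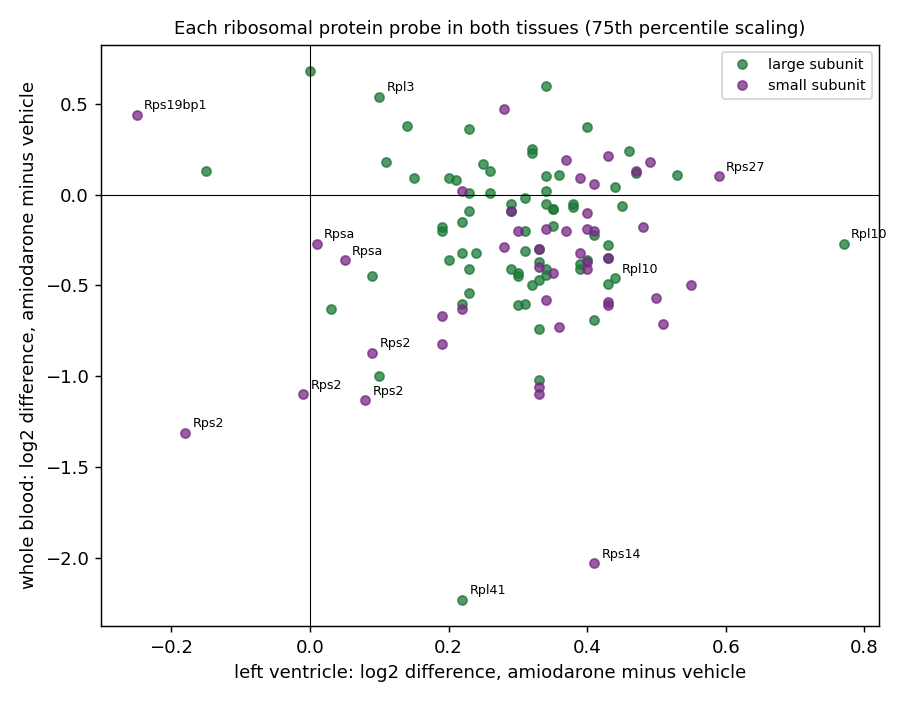
Log2 difference, amiodarone minus vehicle, of each ribosomal protein probe tested in both tissues, heart on the horizontal and blood on the vertical axis, both on the 75th percentile scale. Points are coloured by subunit. The middle 50% lie between 0.23 and 0.40 in heart, with Rpl41 and Rps14 far below the rest in blood and the 4 Rps2 probes near 0 in heart.

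The difference between the tissues was tested as the drug effect in blood minus that in heart, in 1 fit of 12 arrays. On the 75th percentile scale 48 of 121 members were lower and 1 higher, where 23.5% of 23503 probes were lower and 21.6% higher, with a median of -0.56 against 0.10 for all probes. Unscaled, 67 were higher and 0 lower in limma (78 with an unadjusted p under 0.05) and the median was 1.16, against 1.83, where 63.7% of all probes were higher and 0.872% lower. On the 75th percentile scale 31 were lower without replicate 2 of heart vehicle, and 3 were higher without replicate 1 of blood vehicle. Rpl41 (-2.46, SE 0.28, adjusted p = 0.000237) and Rps14 (-2.44, SE 0.25, adjusted p = 0.00015) were the furthest apart. They were followed in order of p by Rps20 (-1.22, SE 0.24, adjusted p = 0.00287), Rplp1 (-1.35, SE 0.28, adjusted p = 0.00335) and Rps18 (-1.02, SE 0.21, adjusted p = 0.00346). Rps19bp1, the binding partner of Rps19, was the 1 that went the other way (0.69, SE 0.21, adjusted p = 0.0198). Its levels were 2.30, 2.34 and 2.24 in heart vehicle, 2.12, 1.99 and 2.02 in heart amiodarone, 1.40, 1.41 and 1.12 in blood vehicle and 1.83, 1.73 and 1.69 in blood amiodarone. It was lower in all treated heart pools and higher in all treated blood pools.

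Between the vehicle groups, the set was lower in heart than in blood on the 75th percentile scale and higher without scaling. Of 121 members 93 were lower in heart and 4 higher, where 37.1% of all probes were lower and 43.2% higher (median -0.99 against 0.26). Unscaled 106 were higher and 0 lower in limma (107 with an unadjusted p under 0.05), with a median of 1.52 against 2.78, where 73.8% of all probes were higher and 13.7% lower. Heart and blood RNA were extracted with different kits and hybridised on different slides, which cannot be told apart from tissue.

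Rpl22l1, the paralog of Rpl22, was higher in heart on both of its probes. Its probe levels in heart vehicle were 1.94, 1.74 and 1.76, and 1.07, 0.71 and 1.06. In blood vehicle they were -1.35, -1.88 and 0.20, and -1.79, -3.14 and -0.76, with only 1 of the 3 blood arrays well above background on each. The size of these differences is uncertain, since most of the blood signals were near background, and it ran from 2.22 to 3.43 over both probes when 1 pool was left out. Rpl22 itself differed by 0.58 (adjusted p = 0.119). Rpl7l1 (1.25, adjusted p = 0.00253) and Rps19bp1 (0.98, adjusted p = 5.7e-05) were the other ones higher in heart. In the fit of all pools, leaving out the paralogs and partners by name, 0 members were higher. Without replicate 3 of blood vehicle 7 members were higher, paralogs and partners counted.

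The dim Rps28 probe was well above background on only 1 heart vehicle array, so no difference is given for it. Among the lowest in heart were probes of Rpl37a (-2.49, adjusted p = 7.09e-07), Rps2 (-2.41, adjusted p = 6.9e-07) and Rps15 (-2.21, adjusted p = 4.97e-07). The file places this Rpl37a probe on the minus strand, where the gene's annotated start is on the plus strand. It places this Rps15 probe on the plus strand, where the other Rps15 probe and the annotated start are on the minus strand. Whether the Rpl37a and Rps15 values speak for the messenger of the gene was not tested. With no scaling Rpl37a, Rps2 and Rps15 were at 0.02, 0.10 and 0.31, that is, higher in heart by less than other members were.

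Most probes of the same gene gave like values. Over the names with at least 2 tested probes, the median range of the log2 drug difference within a name was 0.10 in heart (31 names) and 0.10 in blood (30 names). The widest range in heart was 0.40, for Rpl37, whose 2 probes (0.03 and 0.43) lie on opposite strands per the file. The 2 Rps25 probes (0.22 and 0.48 in heart) also lie on opposite strands, so neither pair measures agreement on the same strand. In blood the probes of Rpl37a and Rps28 disagreed, with fitted ranges of 1.55 and 1.28 that rest on the dim probes named above, and the next was 0.55 for Rpl15. The array also carries probes under other names, mostly predicted genes and transcripts, whose file description is that of the same ribosomal protein. These 311 probes were collected after the members' values were seen. Which copy of a gene the signal of a probe came from was not tested.

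The pairs printed here set a member probe beside a probe of another name that describes the same protein, for 3 genes among those that fell furthest in blood. Capitals mark the longest run of letters the pair shares, and positions are on rn4.

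Rps14, member probe, chr18:56727673-56729533, plus strand: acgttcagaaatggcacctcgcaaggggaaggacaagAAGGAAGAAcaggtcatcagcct
Rps14, other name, chr3:112894248-112894307, plus strand: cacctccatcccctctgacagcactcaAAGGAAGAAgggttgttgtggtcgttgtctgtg
Rps2, member probe, chr10:13976457-13976516, plus strand: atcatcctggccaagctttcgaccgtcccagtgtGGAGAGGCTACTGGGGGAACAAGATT
Rps2, other name, chr9:57829000-57829059, plus strand: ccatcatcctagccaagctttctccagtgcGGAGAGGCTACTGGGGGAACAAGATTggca
Rplp1, member probe, chr8:66046251-66046310, minus strand: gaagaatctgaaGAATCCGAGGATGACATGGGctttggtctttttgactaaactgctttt
Rplp1, other name, chrX:82975725-82975784, minus strand: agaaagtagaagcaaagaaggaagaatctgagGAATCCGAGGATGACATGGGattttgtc

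The Rps14 pair shares a run of only 9 letters, the Rplp1 pair of 20 and the Rps2 pair of 26. The other Rps14 probe differed by -2.19 in blood (adjusted p = 0.00102) and 0.29 in heart. For Rplp1, 3 other probes lay between -1.49 and -1.07 in blood, with -1.13 for the one printed.

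For Rps2, 12 other probes lay between -1.29 and -0.92 in blood with a median of -1.04, and had a median of 0.02 in heart. Rps2 was low in blood and near 0 in heart on all its sets of probes. Rps20 was less even, with other probes at -2.01 and -0.49. Over 53 genes with 226 such probes well above background on all arrays, the other probes had a median of 0.29 in heart and -0.30 in blood. Across these genes their blood difference followed that of the member probes, with Pearson's r of 0.92 and Spearman's rho of 0.89, a description of probes on the same arrays. With 4 probes described as like a ribosomal protein added, r was 0.88 over 54 genes.

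**Figure D5:**
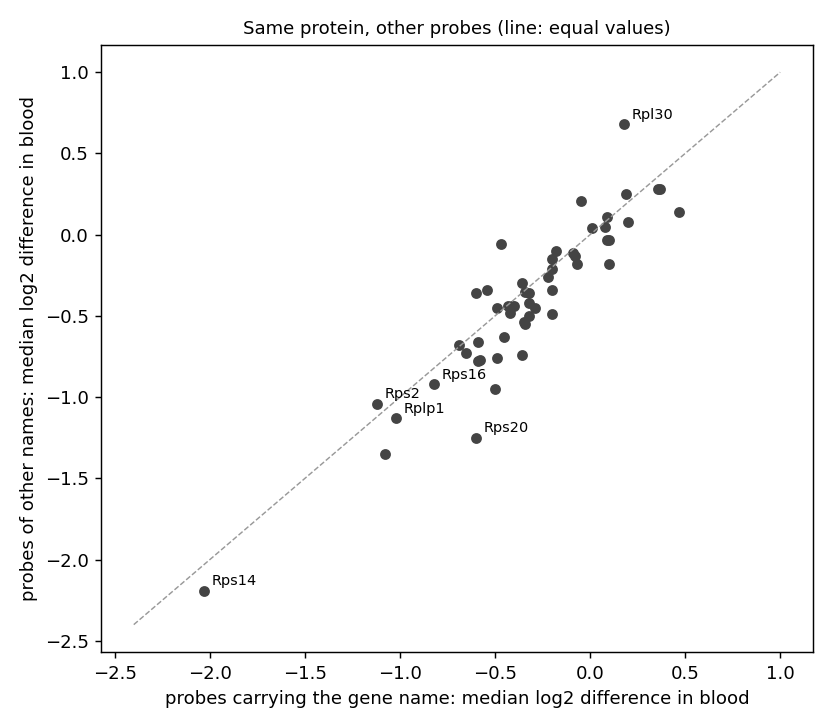
Log2 difference in blood, amiodarone minus vehicle on the 75th percentile scale, for 53 ribosomal protein genes: median of the probes carrying the gene name (horizontal axis) against the median of probes under other names described as the same protein (vertical axis). The dashed line marks equal values. Rps14 (-2.03 and -2.19), Rplp1 and Rps2 are among the lowest by both, and Rps20 is lower by the other probes than by its own.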

How the data were processed

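Per the file headers, the deposited scanner files hold the intensity of each spot from Agilent Feature Extraction 9.5.1.1, background-subtracted and detrended, with no normalization between arrays, beside unprocessed intensity columns and other columns of flags. The authors also deposited normalized intensity values, heart and blood apart per the labels. How they were normalized is not stated in the sources used here, and they served as an alternative. They were moved to the log2 scale for that.

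After taking log2 of the deposited signal, outliers among the 43379 spots were dropped, spots of a probe were averaged (41012 probes), and each array's log2 75th percentile was subtracted. Tests covered probes that some group had well above background on its 3 arrays. limma 3.58.1 in R 4.3.3 was fitted to 6 arrays per tissue for the drug effect and to all 12 for the differences between tissues, with Benjamini-Hochberg adjusted p below 0.05 over all probes; p-values are two-sided. The fits were tested on simulated data. Spike-in scaling used the 7 of 10 control probes that were detected and unsaturated. Files were read with data.table (version 1.17.8), and pandas 2.3.3 and matplotlib 3.10.9 in Python 3.11.15 served for sequences and figures. No array was a duplicate of another.

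Named genes were, in each drug contrast, up to 6 rises and 6 falls past the threshold without overlap, the 5 smallest p in each direction between tissues, the 5 largest in each direction between vehicle groups, and a list always given. Up to 2 genes came from each other list. Some genes that these rules name are not reported here, though counts and medians over probes include them. The members, lists and named genes were chosen with earlier results of these data known. Alternatives covered scaling, background correction, filters, probe choice, slide, replicate number and each pool left out; the 75th percentile over detected probes was added after seeing the data, as were the fits without a pool for the members centred. The number of arrays and signal over background limit the precision.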

Additional observations from a re-analysis of the deposited data

Results flagged for a closer look

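For 6 members the drug effect in blood differed from that in heart by a test of the difference itself (limma, adjusted p under 0.05, named by the smallest p in each direction). They were Rps14 (-2.44), Rpl41 (-2.46), Rps20 (-1.22), Rplp1 (-1.35) and Rps18 (-1.02), which were lower in blood relative to heart, and Rps19bp1 (0.69), which was higher. Without scaling, Rps20, Rplp1 and Rps18 turned to 0.50, 0.37 and 0.71, while Rps14 and Rpl41 stayed below 0 in all 23 other settings and Rps19bp1 above 0.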

How the results depend on the processing

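In heart 2 members rose; 0 did with no scaling, quantile, spike-in or authors' values, the 75th percentile of detected probes, no filter, the slide as a block, the first slide alone or any pool left out (0 to 0), 4 did with array median scaling and 9 with normexp. Centring on the median member gave 0 higher, 1 lower and a median of -0.01 in heart. Replicate numbers did not clearly pair the pools. Correlations of same-numbered deviations were -0.17, -0.24 and 0.32 in heart and 0.07, 0.15 and 0.29 in blood. Those of differently numbered pools ran from -0.21 to 0.34 in heart and from -0.29 to 0.17 in blood. With the replicate block 0 rose in heart, and in blood 1 rose and 23 fell. In blood, higher and lower members and the median (1, 24 and -0.27) became 107, 0 and 1.32 unscaled, 59, 0 and 0.98 with spike-ins, 29, 10 and 0.23 with quantiles, 9, 13 and 0.02 in the authors' values, 6, 8 and 0.01 with array medians and 7, 12 and -0.03 centred. Normexp gave 0 and 1, the first slide 0 and 14, detected probes' percentile 0 higher, no filter 3 higher (all probes' median -1.01, below that of the members), all arrays above background 3 higher, the slide block 2 higher, and the brightest probe of each of 78 names 14 lower; leaving out a pool gave 0 to 4 higher and 13 to 26 lower. The tissue difference in drug effect (1, 48 and -0.56) became 67, 0 and 1.16 unscaled, 11, 2 and 0.59 with spike-ins, 5, 9 and 0.04 with quantiles, 5, 7 and 0.01 centred, 10 lower and -0.37 with array medians, 0 and 3 with normexp, 0 higher without paralogs and partners, and 1 to 3 higher and 31 to 55 lower with a pool left out. Between vehicle groups (4, 93 and -0.99) it became 106, 0 and 1.52 unscaled, 90, 0 and 1.19 with spike-ins, 14 higher and -0.51 with quantiles, 12, 48 and -0.43 with array medians, 32, 39 and -0.04 centred, 36, 13 and 0.29 with normexp, 59 lower by brightest probes, 1 higher with all arrays above background, 0 higher without paralogs and partners, and 4 to 7 higher with a pool left out. Shares of signal became 8.43% and 10.1% in blood vehicle and amiodarone from mean minus local background, 10.8% in blood amiodarone from detected probes, and 7.77%, 8.95%, 11.0% and 12.2% (heart vehicle, heart amiodarone, blood vehicle, blood amiodarone) without the 10 brightest other probes. Unscaled, 83 of 120 members turned sign in blood, 108 of 121 in the tissue difference in drug effect and 110 of 121 between vehicle groups; among members named for their size or p these were Rps2 (0.28, 0.45 and 0.48) and Rps28 (0.48) in blood, Rps20 (0.50), Rplp1 (0.37) and Rps18 (0.71) between tissues in drug effect, and Rpl37a (0.02), Rps2 (0.10) and Rps15 (0.31) between vehicle groups; with spike-ins 82, 103 and 106 turned, among them Rps2 (0.11 and 0.14), Rps28 (0.15) and Rps18 (0.14). The brightest probe leaves fewer features; other causes were not tested. The percentile over detected probes was added after seeing the data. The drug median in heart stayed positive in each alternative but the centring, and 3 pools a group and dim blood vehicle arrays limit single calls.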
